A study of Mus musculus with 4 samples.

Results

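The sites described here are single CCGG sites whose unmodified signal differed between Neil3-null and wild-type mouse heart in the same direction in non-infarcted and in infarcted tissue. They were chosen by their measured values. For each site the signal of the HpaII library was divided by the signal of the MspI library, and this ratio was divided by the median ratio of the sample. A site was taken if the result differed at least 2-fold the same way between the genotypes in both tissues, with an HpaII signal of at least 15 in both samples of the genotype with the higher ratio. Only autosomal sites listed in all 4 samples with a mean MspI signal of at least 20 were considered, and an interval of chromosome 8 (29 to 59 Mb, which holds Neil3) and one of chromosome 1 were left out by the rule. This gave 3246 sites of 674967 that met the signal conditions, and of 967498 autosomal sites listed in all 4 samples. The ratio was higher in Neil3-null tissue at 1702 of them (0.252% of the sites considered) and lower at 1544 (0.229%).

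Genomic DNA came from the left ventricle of C57BL/6 mice aged 8 weeks, all 3 days after myocardial infarction. Wild-type mice and mice without Neil3 (Neil3-/-, called Neil3-null here) each gave 1 sample of non-infarcted and 1 of infarcted ventricle, so there were 4 groups of 1 sample. The non-infarcted tissue also came from hearts with an infarct. The labels do not say whether both tissues were taken from the same hearts or whether animals were pooled, and they do not name the allele beyond the genotype. With 1 sample per group there was no replicate error, no difference was tested, and what follows are values, medians and counts of these 4 samples. A difference between the genotypes cannot be told apart from a difference between the individual samples or mice.

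DNA methylation in mammals falls mainly on the cytosine of CpG dinucleotides, and 5-hydroxymethylcytosine (5hmC) is made from 5-methylcytosine (5mC) by TET enzymes. HpaII and MspI both cut the sequence CCGG, but HpaII is blocked when the inner cytosine is modified and MspI is not, so a high HpaII signal beside MspI marks a site that is unmodified in many of the DNA molecules. Glucosylation blocks MspI at 5hmC, which gives a library of unmodified and methylated sites without hydroxymethylated ones, called C+mC. NEIL3 is a DNA glycosylase of the base excision repair pathway, which removes oxidized bases, and it is also known for opening crosslinks between DNA strands during replication. Heart tissue is a mixture of cardiomyocytes, fibroblasts, endothelial cells and leukocytes, and these samples cannot separate a change within a cell type from a change in the share of cell types.

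Of the shifted sites, 11 lay in the 250 bases before an annotated transcript start and could be printed with their surroundings from RefSeq sequence (GRCm38.p6, the assembly of mm10). The 3 sites before a gene with an established name are shown, with the site of the largest lesser shift in each direction, where the lesser shift is the smaller of the 2 tissues' differences. Each is given 5′ to 3′ on the strand of the transcript, and the capitals mark the CCGG site.
Sycp1, higher in Neil3-null: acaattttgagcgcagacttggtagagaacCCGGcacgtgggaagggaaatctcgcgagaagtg
Gm42081, higher in Neil3-null: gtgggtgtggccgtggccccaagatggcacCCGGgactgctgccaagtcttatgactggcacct
Hnrnpa3, lower in Neil3-null: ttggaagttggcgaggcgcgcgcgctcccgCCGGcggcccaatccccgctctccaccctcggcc
Cbfa2t3, lower in Neil3-null: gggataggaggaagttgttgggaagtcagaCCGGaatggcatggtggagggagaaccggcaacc
Gm32183, lower in Neil3-null: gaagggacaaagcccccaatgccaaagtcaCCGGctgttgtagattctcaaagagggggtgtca
The stretches are chr3:102936165-102936228 on the minus strand, chr11:61397840-61397903 on the minus strand, chr2:75659098-75659161 on the plus strand, chr8:122699290-122699353 on the minus strand and chr5:36164220-36164283 on the plus strand. The sites lie 98, 70, 131, 214 and 78 bases before the start, in the same order. The site before Gm32183, a predicted transcript, is also inside Sorcs2, which encodes a sorting receptor of neurons.

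Few shifted sites lay before transcript starts. Of 7785 sites considered in these 250-base windows, 4 were higher (0.0514%) and 7 were lower (0.0899%), against 0.252% and 0.229% of all sites considered. These shares rest on few sites and were not adjusted for the HpaII signal, on which the rule depends. All 7785 read CCGG in the sequence at the deposited position. The windows that held a shifted site were poorer in CpG, with a median of 4.5 CpG per 250 bases for the higher and 5 for the lower sites, against 14 over all the sites in such windows. Hnrnpa3, which encodes an RNA-binding protein, with 40, and Sycp1, with 17, were above 14. At the site before Hnrnpa3 HpaII gave 104 in non-infarcted and 124 in infarcted wild-type tissue, beside 120.0 and 129 without Neil3, so it was high in all 4 samples. MspI gave 45.8 and 67.5 beside 145 and 151, and the lower ratio of Neil3-null tissue came with the higher MspI signal. At the site before Sycp1, a component of the synaptonemal complex of meiosis, HpaII gave 8.94 and 3.58 in the wild-type samples, beside 20.5 and 17.4 without Neil3. Its MspI signal was 22.4, 18.5, 22.6 and 28.9 with the 2 wild-type samples first and non-infarcted before infarcted tissue within a genotype. This order of samples is used for all groups of 4 values below.

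The scaled ratio of the higher sites had medians of 0.341, 0.318, 0.913 and 0.908. Relative to all sites, whose median is 1 by construction, these sites were low in both wild-type samples and near the middle in both Neil3-null samples. The lower sites showed the mirror image, with medians of 1.07, 1.22, 0.410 and 0.462. The medians of the log2 difference between Neil3-null and wild-type were 1.32 in non-infarcted and 1.37 in infarcted tissue for the higher sites, and -1.30 and -1.31 for the lower sites. These values chose the sites and are given as a description. Most shifts were close to the 2-fold threshold: 175 higher and 145 lower sites reached 3-fold in both tissues, and 33 and 32 reached 4-fold. The ratios of both samples of the higher genotype stood above those of both samples of the lower genotype at 1684 higher and 1515 lower sites.

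**Figure D1:**
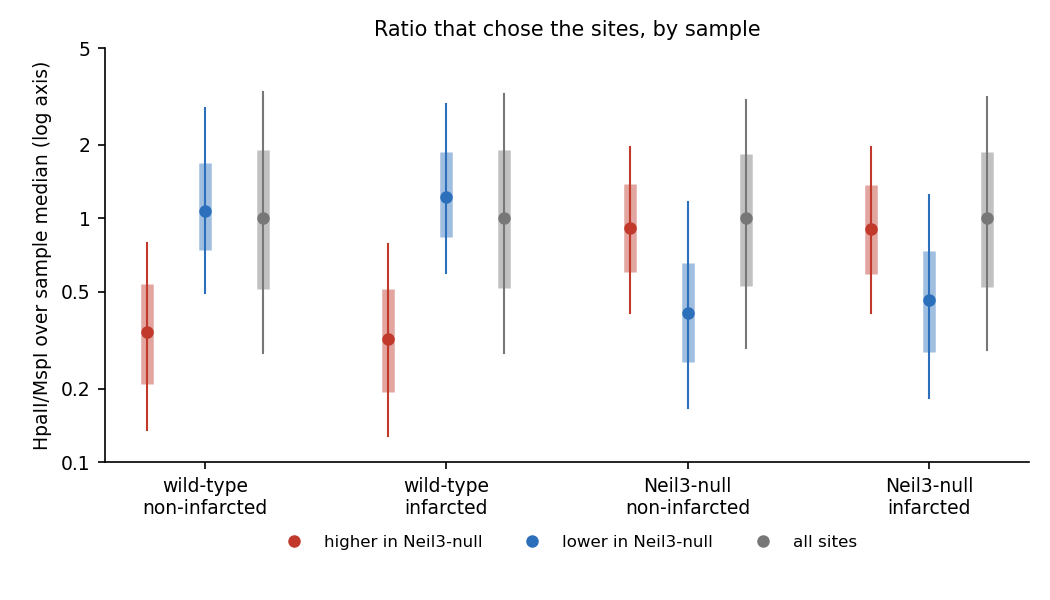
HpaII/MspI ratio divided by the median ratio of the sample (log axis) in the 4 samples, for the 1702 sites higher in Neil3-null, the 1544 lower sites and all 674967 sites considered. Points are medians, thick bars run from the 25th to the 75th and thin lines from the 10th to the 90th percentile over sites, not over animals. The higher sites have medians of 0.341 and 0.318 in the wild-type samples, beside 0.913 and 0.908 without Neil3.

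At most sites the HpaII signal carried the difference. The median HpaII signal of the higher sites was 10.8, 6.97, 24.03 and 23.6, and that of the lower sites 24.6, 22.4, 11.1 and 11.2, beside 35.1, 28.7, 35.0 and 34.6 over all sites. So the higher genotype of each set was itself below the middle of all sites in HpaII signal. The median MspI signal of the higher sites was 40.6, 31.9, 34.6 and 35.4. After each library was divided by its sample's median, the median log2 difference of the higher sites was 1.22 and 1.25 in HpaII and -0.13 and -0.13 in MspI, in non-infarcted and infarcted tissue. For the lower sites it was -1.17 and -1.20 in HpaII and 0.17 and 0.18 in MspI. HpaII differed more than MspI in both tissues at 1496 higher sites (87.9%) and 1246 lower sites (80.7%). MspI differed more in both tissues at 42 and 80 sites. The rule used both libraries, so this split is a description of the chosen sites.

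The low HpaII signals clustered. In each sample they lay mostly in narrow bands, with fewer sites between them. A band was a stretch of signal with many sites, so its bounds depend on that cut-off. Some sites lay between or below the bands. A site was counted in the lowest bands if its signal did not exceed the top of the highest of them. In wild-type non-infarcted tissue the lowest 3 bands ran from 2.51 to 3.19, from 5.76 to 6.39 and from 8.00 to 9.58. In Neil3-null non-infarcted tissue they ran from 4.003 to 5.18, from 7.25 to 9.23 and from 10.3 to 12.7. The bands of wild-type infarcted tissue (3.25 to 3.62, 6.51 to 7.24 and 9.26 to 10.9) and of infarcted Neil3-null tissue (3.76 to 4.80, 7.25 to 8.73 and 10.3 to 12.2) were of the same kind. Both samples of the lower genotype were in the lowest 3 bands at 724 of the higher sites (42.5%) and 703 of the lower sites (45.5%). Over all sites considered, 8.83%, 15.8%, 13.3% and 14% were in these bands. These last shares are for each sample alone, not for both samples of a genotype, so the measures differ. The rule chose sites with a low ratio in the lower genotype, which favours a low HpaII signal there. At these sites 1 step between bands is a large share of the value. The number of tags behind a signal is unknown, so no counting interval is given.

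The same-way shifts are to be read against shifts that went opposite ways in the 2 tissues. In non-infarcted tissue alone, 3.03% of all sites were at least 2-fold higher and 3.27% at least 2-fold lower in Neil3-null, with the same HpaII minimum. In infarcted tissue the shares were 4.2% and 3.71%. Both tissues together gave 0.252% higher and 0.229% lower, and opposite ways 0.182% (higher in non-infarcted, lower in infarcted) and 0.209% (the reverse). In numbers, 3246 sites went the same way and 2642 went opposite ways. These counts come from the values that chose the sites, so nothing is supported by them. At 3-fold there were 320 same-way against 225 opposite-way sites, and at 4-fold 65 against 37. With an HpaII signal of at least 30 there were 536 against 343 sites at 2-fold, 31 against 8 at 3-fold and 13 against 1 at 4-fold. The ratio of same-way to opposite-way sites was thus higher at these stricter settings of fold and HpaII signal, while the difference in numbers was smaller. It was not higher with a stricter MspI setting: a mean MspI signal of at least 40 gave 1088 against 956, a lower ratio than 3246 against 2642. All 4 samples are separate, so the non-infarcted and the infarcted comparison share no sample, but the labels leave it unsaid whether they share hearts.

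**Figure D2:**
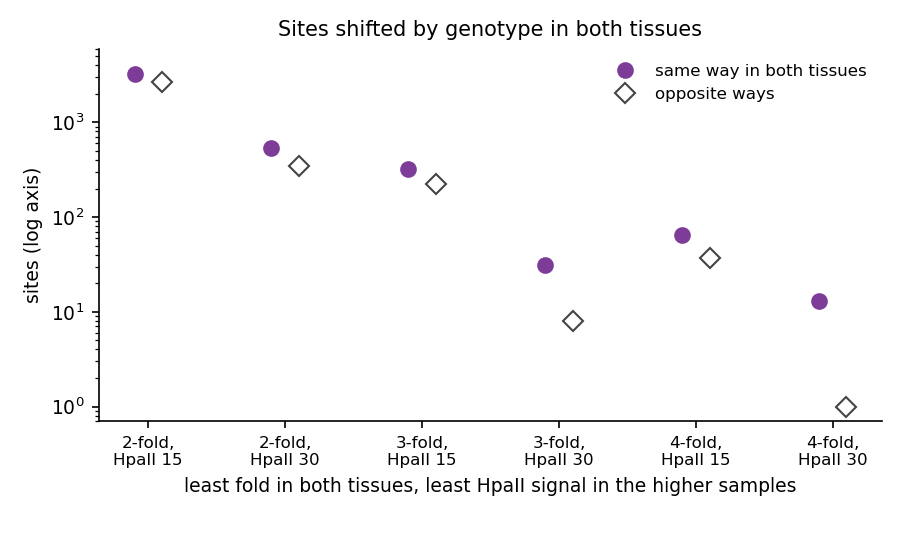
Number of sites (log axis) shifted the same way in both tissues (filled circles) and opposite ways (open diamonds), by the least fold required in both tissues and the least HpaII signal required in the samples with the higher ratio. With 2-fold and HpaII 15 the numbers are 3246 and 2642, and with 4-fold and HpaII 30 they are 13 and 1.

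The C+mC library was not used to choose the sites, and its medians were far smaller than the HpaII differences. The median log2 difference of the C+mC signal, after division by the sample median, was 0.13 and 0.04 at the higher sites and 0.06 and 0.05 at the lower sites, in non-infarcted and infarcted tissue, beside 0.00 and -0.01 over all sites. Its spread was wide. From the 10th to the 90th percentile it ran from -0.61 to 0.97 in non-infarcted and from -0.64 to 0.68 in infarcted tissue at the higher sites, and from -0.66 to 0.77 and -0.60 to 0.61 over all sites. The difference was above 0 at 58.4% and 52.8% of the higher sites, at 54.1% and 54.3% of the lower sites and at 50.3% and 49.3% of all sites. In both tissues at once, C+mC was above 0 at 551 of 1702 higher sites (32.4%) and 465 of 1544 lower sites (30.1%), against 25.2% of all sites. It was below 0 in both tissues at 361 (21.2%) and 335 (21.7%), against 25.6%. These shares differed at higher HpaII signal. Among the 263 higher sites with at least 30 in both Neil3-null samples the medians were -0.03 and -0.03, with 71 sites above 0 and 79 below 0 in both tissues. Among the 273 lower sites with at least 30 in both wild-type samples they were 0.07 and 0.19, with 99 above and 38 below.

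**Figure D3:**
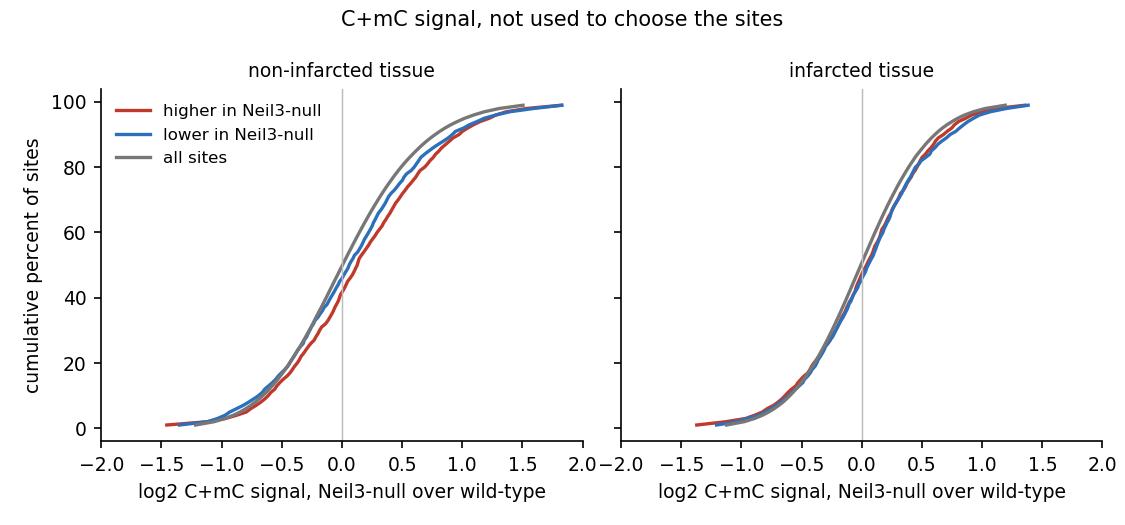
Cumulative percent of sites against the log2 difference of the C+mC signal between Neil3-null and wild-type, in non-infarcted (left) and infarcted (right) tissue, from the 1st to the 99th percentile. The curves of the higher sites, the lower sites and all sites lie close together, with medians of 0.13, 0.06 and 0.00 in non-infarcted tissue and 0.04, 0.05 and -0.01 in infarcted tissue.

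Differences of at least 2-fold in C+mC in both tissues were found at 0.229% of all sites for higher and 0.0803% for lower signal in Neil3-null. Among the higher sites, C+mC was higher by this much at 8 sites and was 2-fold lower at 14. Among the lower sites it was 2-fold lower at 1 site, in Inpp4a, and 2-fold higher at 17. The 8 higher sites with a 2-fold higher C+mC signal lay in Efhd2, Sox6, Pik3c2a and Rnf41 and in 4 places outside genes. At the site in Pik3c2a (chr7:116434110-116434113), a lipid kinase of membrane traffic, all 3 libraries were higher in Neil3-null: HpaII was 12.9, 14.8, 145 and 161 and C+mC was 104, 57.2, 252 and 224. The MspI signal there was 41.4, 43.7, 134 and 128. At the site in Sox6 (chr7:115890043-115890046), a transcription factor of muscle and cartilage development, HpaII was 8.75, 6.97, 34.4 and 24.2, C+mC was 10.6, 8.20, 39.0 and 40.5, and MspI stayed between 46.4 and 65.6.

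The site in Efhd2 (chr4:141866177-141866180) had the largest lesser shift of the higher sites. Efhd2 encodes a calcium-binding protein of the actin cytoskeleton that is abundant in immune cells. HpaII gave 2.98 and 3.59 in the wild-type samples, which is the lowest band of each, and 86.5 and 103.6 in the Neil3-null samples. C+mC was 4.04, 14.2, 89.8 and 83.6, so it was low in both wild-type samples as well. MspI was 29.3, 28.2, 46.4 and 40.2. The scaled ratio was 17.7-fold higher in non-infarcted and 20.3-fold higher in infarcted Neil3-null tissue. The site 207 bp away did not share this: its HpaII signal was 8.83, 9.97, 11.3 and 11.1. At the site 912 bp away, also in Efhd2, HpaII was 90.1, 59.1, 88.04 and 64.6.

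Of the 33 higher sites with a 4-fold shift, HpaII differed more than MspI at 29, and at 28 of these 29 both wild-type samples were in the lowest 2 HpaII bands. C+mC was higher in Neil3-null in both tissues at 10 of the 29 and lower in both at 8. In Rps6kc1 (chr1:190856424-190856427), a protein kinase of the ribosomal S6 kinase family, HpaII was 3.18, 3.59, 23.04 and 32.3. C+mC was 14.4, 22.4, 44.6 and 36.1 there and MspI 88.4, 68.8, 110.3 and 101.0. In Zmynd15 (chr11:70461423-70461426), a transcriptional repressor of the male germ line, HpaII was 3.19, 3.61, 17.3 and 25.7 with MspI between 26.9 and 28.3. Outside genes, the sites at chr14:27588893-27588896 (nearest gene Erc2) and chr13:52775956-52775959 (nearest Auh) had 3.191 and 3.596 beside 27.1 and 22.9, and 3.15 and 3.59 beside 21.6 and 29.2. The sites at chr6:24933597-24933600 (nearest Tmem229a) and chr17:72812061-72812064 (nearest Ypel5) had wild-type HpaII signals of 3.16 and 3.62, and of 3.17 and 3.61. Their Neil3-null signals were 22.3 and 19.97, and 40.5 and 32.5. In these examples, which were picked by the size of the shift, the wild-type values lie in the lowest band. The Neil3-null values lie above the third band by the rule, which required at least 15 in both Neil3-null samples.

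Of the 32 lower sites with a 4-fold shift, HpaII differed more at 22, and at 21 of these both Neil3-null samples were in the lowest 2 bands. C+mC was higher in Neil3-null in both tissues at 7 of the 22 and lower in both at 8. In Ubr3 (chr2:69903717-69903720), a ubiquitin ligase, HpaII was 27.0, 27.2, 4.48 and 4.22, while C+mC ranged from 20.3 to 26.0 and MspI from 17.8 to 21.7. In Nup155 (chr15:8150337-8150340), a scaffold protein of the nuclear pore, HpaII was 19.8, 15.4, 4.26 and 4.07, with MspI between 23.9 and 35.6. In Ccdc85a (chr11:28431078-28431081) it was 20.02, 17.98, 4.25 and 4.05, and in the predicted gene Gm272 (chr13:49767059-49767062) it was 25.1, 20.7, 4.46 and 4.10. The site at chr2:136665841-136665844, nearest to Snap25, a protein of synaptic vesicle fusion, had 27.1, 16.4, 4.40 and 4.31. At all 5 sites both wild-type samples were above both Neil3-null samples in HpaII signal. The rule required at least 15 in both wild-type samples, and these sites were picked by the size of the shift.

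**Figure D4:**
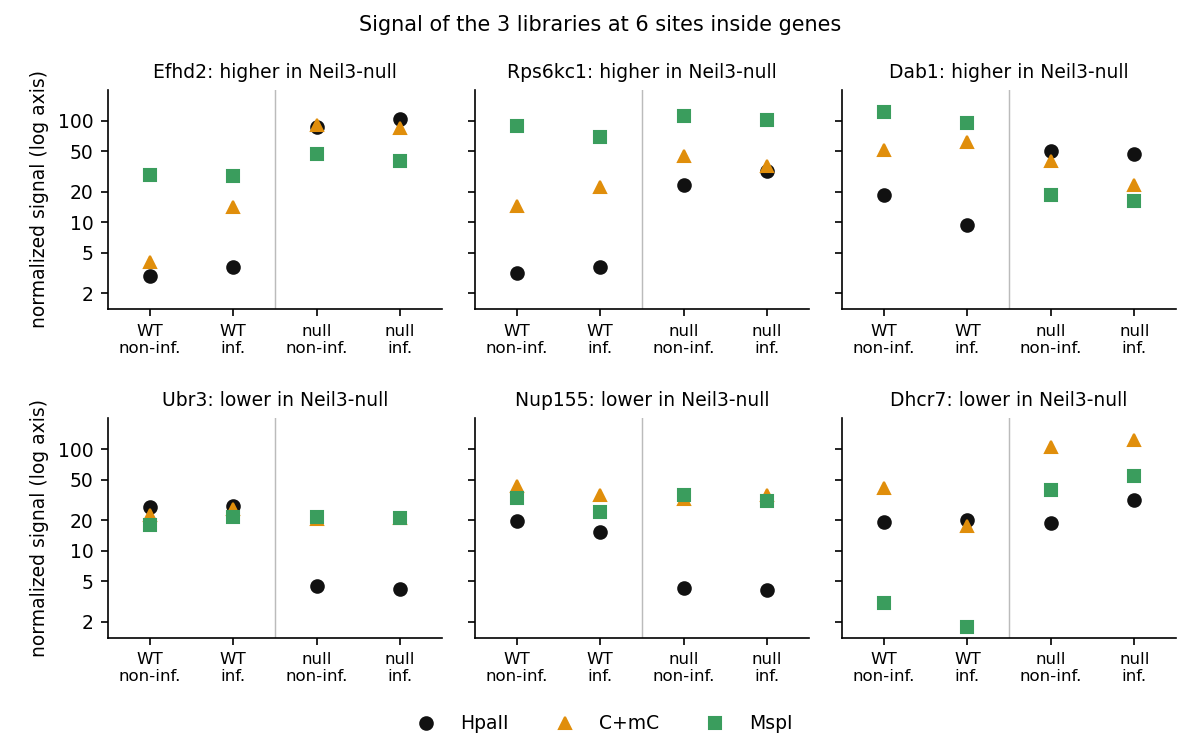
Normalized signal (log axis) of the HpaII (circles), C+mC (triangles) and MspI (squares) libraries in the 4 samples at 6 shifted sites inside genes; each point is 1 library of 1 sample, and the grey line parts wild-type (WT) from Neil3-null. In Efhd2, Rps6kc1, Ubr3 and Nup155 the HpaII signal differs between the genotypes most, and in Dab1 and Dhcr7 the MspI signal does.

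At another group of strongly shifted sites it was MspI that differed. MspI was at least 2-fold higher in Neil3-null in both tissues at 0.0159% of all sites and 2-fold lower at 0.0116% (107 and 78 sites). Of the 107, 34 were among the lower sites (2.20% of them), and of the 78, 23 were among the higher sites (1.35%). MspI is the denominator of the ratio that chose the sites, so this is part of the choice. The C+mC library did not enter the choice, but it is cut by the same enzyme from DNA of the same sample. A like difference in both libraries is therefore no separate support. Where MspI differed more than HpaII and the shift was 4-fold, C+mC differed in the direction of MspI. It was lower in Neil3-null in both tissues at 4 of 4 higher sites and higher at 10 of 10 lower sites. The median log2 difference of C+mC was -1.41 and -1.62 at the former and 1.75 and 1.92 at the latter. Of the 13 sites with a 4-fold shift and an HpaII signal of at least 30, MspI differed more at 9, namely at 3 of 6 higher and 6 of 7 lower sites.

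Among the lower sites of this kind, the largest lesser shift was at chr12:104645983-104645986, nearest to Dicer1, the nuclease that makes microRNAs, at a distance of 41757 bp. Its MspI signal was 8.94, 5.17, 78.5 and 99.3, its C+mC signal 11.3, 4.72, 57.6 and 75.05 and its HpaII signal 16.9, 26.0, 10.7 and 10.5. In Dhcr7 (chr7:143828271-143828274), the enzyme of the last step of cholesterol synthesis, MspI was 3.06, 1.80, 39.6 and 54.6 and C+mC 41.1, 17.5, 104 and 122, while HpaII was 19.3, 20.1, 18.7 and 31.3. At chr2:168809855-168809858, nearest to Sall4, a transcription factor of stem cells, MspI was 7.98, 8.64, 39.9 and 47.3, C+mC 35.6, 25.8, 109 and 132, and HpaII 102, 89.8, 85.2 and 81.1. At chr12:18325814-18325817, nearest to Zfp996, MspI was 12.1, 8.54, 87.2 and 89.5 and HpaII 53.4, 42.8, 60.9 and 58.0. C+mC there was 41.2, 24.4, 193 and 139. At these 4 sites both MspI-cut libraries were lower in both wild-type samples than in both Neil3-null samples, and at 3 of them HpaII differed by less than 2-fold between the genotypes in each tissue. The site at chr1:163194900-163194903, nearest to Prrx1, a transcription factor of mesenchymal cells, was of mixed kind, with HpaII at 62.7, 33.8, 18.2 and 13.5 and MspI at 46.9, 28.96, 92.6 and 100.6.

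Some of the higher sites of this kind lay close together. Windows of 1 Mb were counted after this was seen, and 5 windows held 3 or more sites with a 2-fold lower MspI signal in Neil3-null in both tissues: 4 on chromosome 4 (104 to 105, 106 to 107, 129 to 130 and 130 to 131 Mb) and 1 on chromosome 2 (131 to 132 Mb). They held 49 of the 78 such sites, of which 14 were among the higher sites, while 9 higher sites of this kind lay elsewhere. In all they held 27 of the higher sites (1.08% of the 2489 sites there, against 0.249% elsewhere) and 8 of the lower sites (0.321% against 0.228%). At 19 sites of these windows all 3 libraries were 2-fold lower in Neil3-null in both tissues, against 6 sites elsewhere. The windows were picked by a lower MspI signal, which is the denominator of the ratio and 1 of the 3 libraries. Higher counts of such sites and of higher sites there are thus in part a product of how the windows were picked. Nothing is read from these shares. The median MspI signal of the 19 sites was 91.2, 70.6, 2.84 and 7.99, their median C+mC signal 70.9, 56.0, 2.32 and 7.16, and their median HpaII signal 68.7, 48.2, 9.85 and 18.5. In Neil3-null, all 3 libraries of these sites were low together, and HpaII was the least low of the 3 by the ratio of these medians. Of the 19, 3 were among the higher sites, so their ratio was higher although their HpaII signal was lower in Neil3-null.

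Dab1, an adapter of the reelin pathway, held 5 shifted sites, 2 higher and 3 lower. At its strongest (chr4:104237294-104237297) MspI was 121, 94.2, 18.4 and 16.1, C+mC 51.8, 62.3, 40.2 and 23.3, and HpaII 18.6, 9.43, 49.7 and 47.3, which is a higher HpaII beside a lower MspI signal. The scaled ratio there was 16.9-fold and 29.3-fold higher. At chr4:130130148-130130151, 69 bp from Hcrtr1, the orexin receptor gene, MspI was 82.99, 66.3, 10.3 and 10.9 and HpaII stayed between 33.7 and 40.5. At chr4:129901000-129901003, nearest to Spocd1, MspI was 131, 83.4, 14.7 and 14.2. Without the 5 windows, 1675 higher and 1536 lower sites remained, and with only sites whose MspI signal differed by less than 2-fold in both tissues, 1628 and 1465 remained. Both alternatives were chosen after seeing the data.

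The median difference at neighbouring CCGG sites was near 0. The values at these neighbours did not enter the choice of the site beside them. Within 1 to 50 bp of a higher site there were 57 other sites considered, with a median log2 difference of the ratio of -0.04 in non-infarcted and 0.04 in infarcted tissue. At 51 to 200 bp it was 0.15 and 0.03 over 187 sites, from there to 1000 bp -0.01 and 0.00 over 1127 sites and beyond that, up to 5000 bp, -0.01 and 0.01 over 5718 sites. Around the lower sites it was -0.14 and -0.02 in the first bin, over 38 sites, and between -0.01 and 0.04 in the others. Against differences of 1.32 and -1.30 at the shifted sites themselves, which were chosen by this difference, these medians were small from the first 50 bp on. Few neighbours were shifted sites themselves. Of the 187 sites at 51 to 200 bp from a higher site, 2 were higher (1.07%) and 1 was lower (0.535%). These 2 are a single pair, chr2:131807256-131807259 and chr2:131807330-131807333, each counted as the neighbour of the other. Of the 1127 from there to 1000 bp, 6 were higher (0.532%) and 1 was lower (0.0887%). These 6 are likewise pairs, each site counted as the neighbour of the other. Over all sites the shares were 0.252% and 0.229%. Around the lower sites, 0 of the sites up to 200 bp away and 2 of 982 from there to 1000 bp (0.204%) were lower sites. These 2 are again a single pair. In the bins from 51 to 200 bp and from there to 1000 bp, 1 each was a higher site. Beyond 1000 bp, up to 5000 bp, more neighbours were shifted the other way than the same way. There were 18 (0.315%) against 14 (0.245%) around the higher sites. Around the lower sites there were 19 (0.395%) against 8 (0.166%). These counts are small beside shares of 0.252% and 0.229% over all sites. A pair of a higher and a lower site enters from either side, so the 18 and the 19 are not separate observations. Nothing is read from them. The site 6 bp from the lower site near Prrx1 was not itself a shifted site, but its HpaII signal was 44.1, 25.02, 14.3 and 17.6, lower in Neil3-null in both tissues, with a ratio 3.46-fold lower in non-infarcted and 1.25-fold lower in infarcted tissue. No run of 3 or more sites shifted the same way within 1 kb of one another was found, and there were 4 pairs of higher sites and 1 pair of lower sites.

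**Figure D5:**
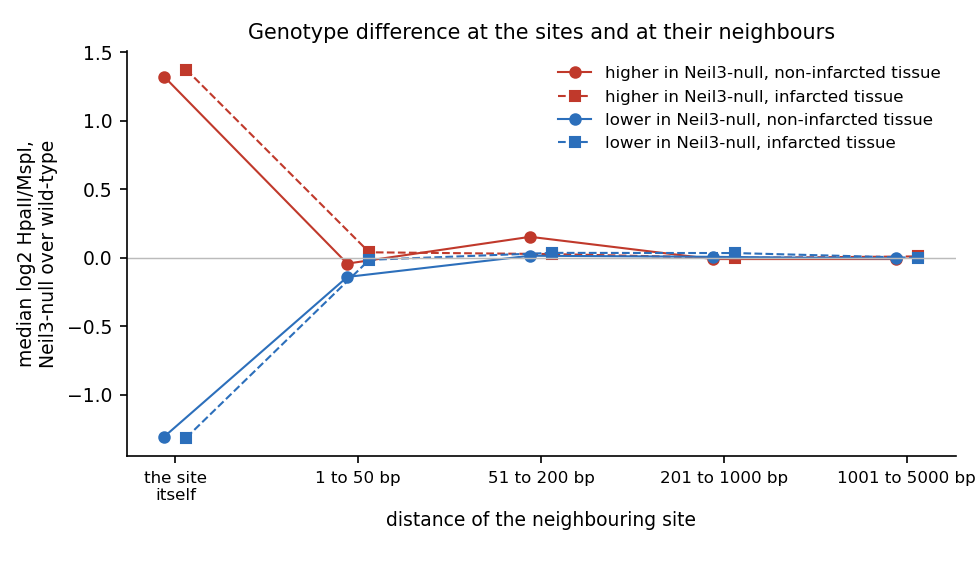
Median log2 difference of the HpaII/MspI ratio between Neil3-null and wild-type at the shifted sites and at the other sites considered around them, by distance, in non-infarcted (circles, solid) and infarcted (squares, dashed) tissue. The sites themselves, which were chosen by this difference, sit at 1.32 and 1.37 or -1.30 and -1.31, and their neighbours lie between -0.14 and 0.15.

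The shifted sites were spread over the genome and away from gene ends. RefSeq gene bounds of protein-coding genes were used, which give neither exons nor introns. Of the higher sites 51.5% and of the lower sites 46.2% lay inside a gene, against 48.1% of all sites. Within 1 kb of a gene end lay 55 higher sites (3.23%) and 58 lower sites (3.76%), against 7.77%. No other CCGG site was listed within 500 bp of 57.1% of the higher and 58.2% of the lower sites, against 51.6%. These shares were not adjusted for the HpaII signal of the sites. Every autosome held both kinds, from 0.193% to 0.313% of its sites for the higher and from 0.188% to 0.279% for the lower. Of 2373 windows of 1 Mb, 734 held no shifted site, and no window held more than 8 higher or 5 lower ones.

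Near gene ends, the higher sites described after Hcrtr1 are those in Brms1l, a subunit of a histone deacetylase complex, near Gas2l1, a linker of actin and microtubules, and in Serpina12, a serpin secreted by fat tissue. In Brms1l (chr12:55869296-55869299) HpaII was 3.19, 3.61, 20.1 and 20.2, with MspI between 19.5 and 27.2. Near Gas2l1 (chr11:5053454-5053457) it was 5.95, 3.61, 21.6 and 19.3, and in Serpina12 (chr12:104044112-104044115) 5.79, 3.55, 22.5 and 16.1. Each of these 3 had both wild-type samples in the lowest 2 bands. The lower sites were near Atp2a3, a calcium pump of the endoplasmic reticulum, Pef1, a calcium-binding adapter, Rpa2, a subunit of the single-strand DNA binding protein RPA, and Lrit2, and in Cox8a, a subunit of cytochrome c oxidase. Near Atp2a3 (chr11:72993417-72993420) HpaII was 15.1, 19.4, 4.16 and 3.99. Near Pef1 (chr4:130106845-130106848) it was 25.03, 16.3, 4.68 and 4.44, near Rpa2 (chr4:132779324-132779327) 29.7, 33.7, 7.86 and 17.4, and near Lrit2 (chr14:37074556-37074559) 30.7, 27.5, 11.2 and 14.3. In Cox8a (chr19:7215299-7215302) HpaII was 75.3, 58.0, 69.1 and 73.4 and MspI 37.5, 39.0, 122 and 139, so its lower ratio came with a higher MspI signal and an HpaII signal that overlapped between the genotypes.

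A gene rarely held more than 1 shifted site. With 1 kb on either side, 1500 of 18400 genes with a site considered held at least 1, and 1318 of these held 1. Of 182 genes with 2 or more, 94 held both a higher and a lower site. The most, 5 each, were in Dab1, Cdh13, Opcml and Spock1, with 2 to 3 in either direction and 333, 569, 230 and 289 sites considered. Cdh13 and Opcml encode cell adhesion proteins and Spock1 a proteoglycan. The genes with 3 sites in 1 direction and none in the other included Nav1 and Nedd4l (higher) and Sorcs2, Csmd1, Tenm2 and Ext1 (lower). These genes had from 92 (Ext1) to 393 (Tenm2) sites considered. Their 3 sites were 3.26% of these in Ext1 and 0.763% in Tenm2, with the others between, against 0.252% (higher) and 0.229% (lower) of all sites. The genes were picked by their count, so nothing is read from these shares.

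Gene lists were counted with their bodies and 1 kb on either side. Of 1396 sites in 33 cardiomyocyte genes, 2 were higher and 1 was lower. They lay in Ttn, the giant sarcomere protein titin, in Cacna1c, a subunit of the L-type calcium channel, and in Ryr2, the calcium release channel of the sarcoplasmic reticulum. In Ttn (chr2:76711078-76711081) HpaII was 17.0, 9.84, 33.1 and 28.7, in Cacna1c (chr6:118712327-118712330) 5.88, 6.69, 18.6 and 21.3, and in Ryr2 (chr13:11574509-11574512) 16.04, 17.98, 4.34 and 10.98. The endothelial list had 1 lower site of 702, in the transcription factor gene Erg (chr16:95505532-95505535), where HpaII was 18.01, 18.5, 4.40 and 4.08. Lists of fibroblast and matrix genes (521 sites), clustered protocadherins (221 sites) and Hox clusters (290 sites) had none in either direction. These are 0 to 2 sites per list and direction (0 to 0.143% of the sites, against 0.252% and 0.229% of all sites), too few to set a list apart.

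Genes that write, read or remove DNA methylation had 4 higher sites and no lower site of 483 (0.828% and 0, against 0.252% and 0.229%). Dnmt1 encodes the maintenance methyltransferase, Tet1 an enzyme that oxidizes 5mC and Mbd1 a protein that binds methylated CpG. In Dnmt1 (chr9:20924887-20924890) HpaII was 11, 6.94, 24.4 and 20.1, with MspI at 28.7, 17.6, 29.7 and 22.3. The 2 sites in Tet1 (chr10:62834926-62834929 and chr10:62878137-62878140) had 13.3, 10.1, 24.9 and 25.2, and 12.7, 14.1, 22.9 and 25.8. In Mbd1 (chr18:74278765-74278768) HpaII was 6.16, 3.57, 17.99 and 18.05. At each of the 4 sites both Neil3-null samples were above both wild-type samples. The folds of the ratio were between 2.02 and 2.68 in Dnmt1 and Tet1 and were 3.59 and 5.12 in Mbd1. These 4 sites are too few to set the list apart from all sites, and C+mC was neither higher nor lower in Neil3-null at all of them.

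Base excision repair, the pathway of NEIL3, had 1 higher and 2 lower sites of 213 (0.469% and 0.939%, against 0.252% and 0.229% of all sites). The higher site was in Lig3 (chr11:82804014-82804017) and the lower ones in Lig1 (chr7:13307605-13307608), both DNA ligases, and in Xrcc1 (chr7:24567921-24567924), the scaffold that binds Lig3. HpaII was 24.8, 15.1, 39.9 and 41.2 in Lig3, 28.6, 28.2, 17.2 and 20.2 in Lig1 and 18.4, 18.1, 11.3 and 4.15 in Xrcc1. Imprinted genes had 2 higher and 3 lower sites of 640 (0.312% and 0.469%), in Usp29 and Igf2r and in Gnas, Peg3 and Rasgrf1. In Usp29 HpaII was 20.02, 20.1, 29.4 and 34.8, with MspI at 33.5, 29.1, 23.6 and 21.8. In Gnas it was 23, 26, 7.66 and 21.4 and in Peg3 18.3, 21.1, 4.40 and 11.2. At Igf2r (chr17:12731036-12731039), a receptor that clears IGF2, HpaII was 6.18, 12.9, 20.1 and 20.7, and at Rasgrf1 (chr9:89969430-89969433), a Ras exchange factor, 23.96, 18.2, 7.83 and 7.61. Germline genes had 1 of each of 279 (0.358% each), before Sycp1 and in Tdrd1 (chr19:56844925-56844928), a gene of the piRNA pathway with HpaII at 17.3, 15.1, 10.8 and 10.8. These 3 lists had 1 to 3 sites in a direction, and nothing is read from their shares.

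The median log2 ratio of infarcted over non-infarcted tissue was -0.09 in wild-type and -0.02 in Neil3-null at the higher sites, and 0.17 and 0.12 at the lower sites. A 2-fold infarct difference was found at 6.45% (higher) and 6.15% (lower) of all sites in wild-type and at 5.02% and 4.92% in Neil3-null. At the higher sites these shares were 7.11% and 10.2% in wild-type, where their HpaII signal was low, and 1.53% and 2.70% in Neil3-null. At the lower sites they were 6.35% and 0.842% in wild-type, beside 11.6% and 5.64% without Neil3. The rule used the same values, so nothing is read from these shares.

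At the threshold, members and other sites had like values. Just inside were sites in Fhit and Gse1 for the higher and in Fbxw24 and Prkd1 for the lower. In Fhit (chr14:10712837-10712840) the scaled ratio was 0.380, 0.446, 0.938 and 0.893. Just outside were sites in Mei4 (chr9:81891840-81891843), with 0.588, 0.786, 1.18 and 1.85, and in Cdh23. In Prkd1 (chr12:50596349-50596352) it was 1.002, 1.11, 0.501 and 0.364, and just outside, at chr17:86734699-86734702, it was 0.609, 0.768, 0.304 and 0.379.

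In the whole series, between 1060295 and 1079784 sites were listed per sample. The X chromosome had 0.369 to 0.383 of the autosomes' median MspI signal in all 4 samples. As a check on the tissue, the median scaled ratio was 1.06 to 1.23 over the sites of cardiomyocyte genes, 1.14 to 1.22 over those of leukocyte genes and 0.896 to 0.973 over those of germline genes. The assay does not measure expression, so the marker genes do not show which cells were present.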

How the data were processed

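HMST-seq libraries were made from DNA of each sample by digestion with HpaII, with MspI after glucosylation or with MspI, per the labels' protocols. The authors deposited, for every CCGG site, 1 normalized signal from each library. The sources used here name no normalization method, aligner or tag counts. The build is mm10 (submitters' processing notes), and deposited positions were raised by 1 to name the first base of the CCGG. Sites were selected as described in the report, with no pseudocount. Differences of 1 library are log2 ratios of signals divided by the sample's median over the sites considered. Gene bounds and promoter sequence came from RefSeq (GRCm38.p6). With 1 sample per group no test was run. Sites named are the 10 with the largest lesser shift per direction, up to 5 near a gene end with an established name, those in listed genes and the 2 nearest the threshold on either side, with some others chosen after their values were seen. Some items that these rules name are not reported here. The members and the gene lists were chosen with earlier results of these data known. The selection code was run on simulated data with planted 4-fold shifts, a mean MspI signal of at least 40 and a base HpaII signal of at least 30. Shifts near 2-fold and the low HpaII bands were not simulated, so that run does not show how the rule performs there. Python 3.11.15, numpy 2.4.6, pandas 2.3.3 and matplotlib 3.10.9 were used.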

Additional observations from a re-analysis of the deposited data

Results flagged for a closer look

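The genotype shift went opposite ways in the 2 tissues at 2642 sites, under the same fold and signal conditions that gave 3246 same-way sites. At these sites the Neil3-null sample was above the wild-type sample in one tissue and below it in the other. This difference between the tissues was not tested, since each group is 1 sample.

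On the Y chromosome, which the comparisons do not use, the Neil3-null samples listed 1389 (non-infarcted) and 1393 (infarcted) sites, against 979 and 938 in the wild-type samples. The sites described in the report are autosomal, and whether this bears on them was not tested.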

How the results depend on the processing

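Under the alternatives tried, no shifted site met the rule in the opposite direction. Other thresholds leave the ratio of a site nearly unchanged, so most of the alternatives could not have turned one, and nothing is read from this. The numbers of higher and lower sites, 1702 and 1544 as reported, moved most with the thresholds. A fold of 1.5 gave 10607 and 10965, and a fold of 3 gave 175 and 145. An HpaII minimum of 10 gave 3294 and 2648, and of 30 gave 263 and 273. A mean MspI minimum of 10 gave 2827 and 2806, and of 40 gave 622 and 466. A pseudocount of 5 on both signals left 439 and 463, with 664 sites shifted opposite ways. With the C+mC library as the denominator there were 3391 and 4144, of which 708 and 657 were among those reported. Same-way sites outnumbered opposite-way sites under all 12 alternative rules, at the least by 1088 to 956 (mean MspI of at least 40). The median difference at neighbours within 200 bp was 0.24 and 0.20 around higher and 0.10 and 0.17 around lower sites of at least 3-fold, in non-infarcted and infarcted tissue, so it was above 0 around both kinds. Without division by the sample median, the C+mC difference in infarcted tissue was 0.32 at the higher and 0.34 at the lower sites, where the wild-type library has the lowest total signal of the 4. The other 34 values stayed within 0.1 (log2) or 1.5-fold. A like count did not always mean the same sites. With the mean of MspI and C+mC as the denominator there were 1620 higher and 1534 lower sites, of which 1016 and 949 were among those reported. The depth behind a value is unknown, and shifts at sites of low HpaII signal rest on few steps of that signal. No paired analysis was possible because each group has 1 sample.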
